A study of Homo sapiens with 6 samples.

Results

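The genes described here are those whose names place them in the motile cilium, most of them as builders of its axoneme. They were the measured genes whose whole symbol starts with CFAP (cilia and flagella associated proteins), DNAH and DNAI (axonemal dynein heavy and intermediate chains), DNAAF (dynein axonemal assembly factors), RSPH (radial spoke proteins), TEKT (tektins) or ODAD (outer dynein arm docking complex), together with TTC29, SPAG6, SPAG16, SPAG17, CCDC39, CCDC40, HYDIN, DRC1, RFX2, RFX3, DNAAF11 under its older name LRRC6, ZMYND10, PIFO, ENKUR and FOXJ1. The rule uses symbols alone, and it was set with earlier results of these data known. Of the 14884 genes that could be named on the array, 79 met it. Protein-coding genes made up 72 of them, and the other 7 were 5 long noncoding RNAs, the readthrough transcript DNAAF4-CCPG1 and the pseudogene TEKT4P2. In the current RefSeq annotation 141 genes meet the same choice. Every DNAH heavy chain, DNAI1, DNAI2, DNAAF1 to DNAAF4, HYDIN, ZMYND10, ENKUR, PIFO, RFX2 and RFX3 are among those that no probeset carried by name here, so these genes were not analysed.

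The study measured gene expression in U87 cells, a human glioblastoma line of glial origin, after loss of ZNF768, a zinc finger transcription factor that binds ancient interspersed repeats. Cells received lentiviruses to knock ZNF768 down or were control cells, went through drug selection, and gave RNA 96 h after infection. Each group had 3 biological replicates, and the 6 RNA samples were each hybridised to 1 Affymetrix Human Gene 2.0 ST array. The labels name neither the content of the control virus nor the hairpin, so an effect of 1 hairpin and an effect of ZNF768 loss cannot be told apart. All values below are log2 expression values per probeset from the Robust Multichip Average (RMA) procedure, a difference between them is a log2 fold change, ZNF768 depleted minus control, and 1 unit is a 2-fold difference. In a bulk RNA sample, more cells that express a gene and more RNA per cell cannot be told apart.

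The axoneme is the microtubule core of a cilium. In a motile cilium, rows of dynein motors sit on the outer doublet microtubules and slide them against each other, while radial spokes carry signals from a central pair of microtubules to the motors. Dyneins are put together in the cytoplasm by dedicated assembly factors before transport into the cilium. FOXJ1 and the RFX factors are the transcription factors best known for switching these genes on in ependyma, airway and other ciliated tissues, and the RFX factors bind an inverted repeat called the X-box.

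ZNF768 read 8.49, 8.54 and 8.54 in the 3 control arrays and 7.02, 7.14 and 7.31 in the 3 depleted arrays. The groups did not overlap and the level fell by 1.36 on the log2 scale (SE 0.0851, limma adjusted p = 1.50e-04). Array medians were 6.40 to 6.44, and correlations over all probesets were 0.992 to 0.994 within the groups against 0.977 to 0.980 between them. At an adjusted p under 0.05, ZNF768 depletion went with a rise of 2466 genes and a fall of 2501. Of 13 markers of astrocytes and glioma, 9 were measured, and 4 of these fell (44.4%, against 16.8% of all genes). The falls were of VIM by 0.71, CD44 by 0.70, NES by 0.49 and SOX9 by 0.35. GFAP, AQP4, S100B, SOX2 and OLIG2 read 6.83, 5.41, 5.91, 6.08 and 7.11 in control cells, and none of them passed the test. The part of these shifts in the results below was not tested.

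The promoters of 4 genes that rose are printed here, because X-box letters mark many genes of this family and these 4 promoters differ in whether they hold them. The sequences are RefSeq's on GRCh38.p14 and run 5′ to 3′ on the gene's strand from 250 bases before to 50 bases after the annotated start. Capitals mark matches, on either strand, to the RFX core site GTTGCC or to the X-box, which is GTNNCC, any 2 bases and then GGNNAC. Positions count from the start, with negative values before it. CFAP206 lies at chr6:87407722-87408021 on the plus strand, TTC29 at chr4:146945815-146946114 on the minus strand, RSPH4A at chr6:116616229-116616528 on the plus strand and RSPH9 at chr6:43644786-43645085 on the plus strand.
CFAP206: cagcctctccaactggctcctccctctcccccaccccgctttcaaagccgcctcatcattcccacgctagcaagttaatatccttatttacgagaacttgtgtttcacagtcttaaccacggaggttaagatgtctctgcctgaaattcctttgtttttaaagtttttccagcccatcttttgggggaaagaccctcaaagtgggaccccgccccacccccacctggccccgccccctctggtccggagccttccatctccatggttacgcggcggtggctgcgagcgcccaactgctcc
TTC29: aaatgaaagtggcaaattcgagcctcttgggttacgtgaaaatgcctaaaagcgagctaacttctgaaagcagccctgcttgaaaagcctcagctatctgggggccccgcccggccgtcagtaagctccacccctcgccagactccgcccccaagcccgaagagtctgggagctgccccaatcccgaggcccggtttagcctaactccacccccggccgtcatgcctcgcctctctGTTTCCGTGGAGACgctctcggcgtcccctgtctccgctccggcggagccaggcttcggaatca
RSPH4A: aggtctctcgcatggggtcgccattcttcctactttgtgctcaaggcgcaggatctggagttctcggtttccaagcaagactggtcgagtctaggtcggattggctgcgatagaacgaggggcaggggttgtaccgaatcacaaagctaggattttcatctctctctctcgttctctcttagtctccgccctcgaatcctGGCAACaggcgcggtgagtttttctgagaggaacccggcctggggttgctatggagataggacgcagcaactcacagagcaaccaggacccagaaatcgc
RSPH9: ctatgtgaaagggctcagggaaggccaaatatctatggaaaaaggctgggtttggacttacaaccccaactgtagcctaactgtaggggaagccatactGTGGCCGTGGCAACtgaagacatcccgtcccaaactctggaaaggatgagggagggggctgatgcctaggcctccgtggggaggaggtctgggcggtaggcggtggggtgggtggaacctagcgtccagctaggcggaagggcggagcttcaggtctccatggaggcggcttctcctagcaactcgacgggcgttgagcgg
The TTC29 match is a whole X-box whose first base is at position -14. In RSPH4A the capitals are a core site with its first base at -50. RSPH9 holds an X-box with its first base at -151, and its core site lies within that X-box. The CFAP206 window has no exact match.

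ZNF768 depleted cells carried more RNA of many of these genes. Of the 79 genes, 26 rose (32.9%) and none fell, against 16.6% that rose and 16.8% that fell among all genes. The share past the test in either direction was close to the 33.4% of all genes, and all 26 calls were rises. With limma, 35 of the 79 had an unadjusted p under 0.05, a share like that of all genes (6700 of 14884). The median log2 fold change was 0.17 over the 79 genes and 0.04 over all genes. Of the 79 differences 61 were positive (77.2%, against 57.6% of all genes). Rises of at least 2-fold were seen in 5 of the 79 genes (6.33%, against 1.22% of all genes), namely CFAP206, CFAP300, TTC29, DNAAF11 and RSPH4A. None of the 79 fell at least 2-fold, which 3.37% of all genes did. In 41 of the 79 genes (51.9%) every depleted array read above every control array, which held for 28% of all genes, and in 2 every depleted array read below, against 23.5% of all genes. The median control level was 6.52 over the 79 genes, below that of all genes, so these shares compare genes of unlike level. The part of level in the absence of falls was not tested. Among the 46 genes above the median signal, 23 rose and none fell, when 2887 of all genes rose and 2767 fell. The 18 spermatid markers described below, with a median control level of 5.41, had 11.1% rises, no falls and 77.8% positive differences. All 26 genes that rose are protein coding, and their folds ran from 1.20 to 3.71. When each sample was left out in turn, 18 of the 26 kept the call in all 6 fits. CCDC40, CFAP119, CFAP251, CFAP299, CFAP36, CFAP418, CFAP61 and CFAP99 lost it in at least 1 fit, where their limma adjusted p ran from 0.0519 to 0.106.

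**Figure D1:**
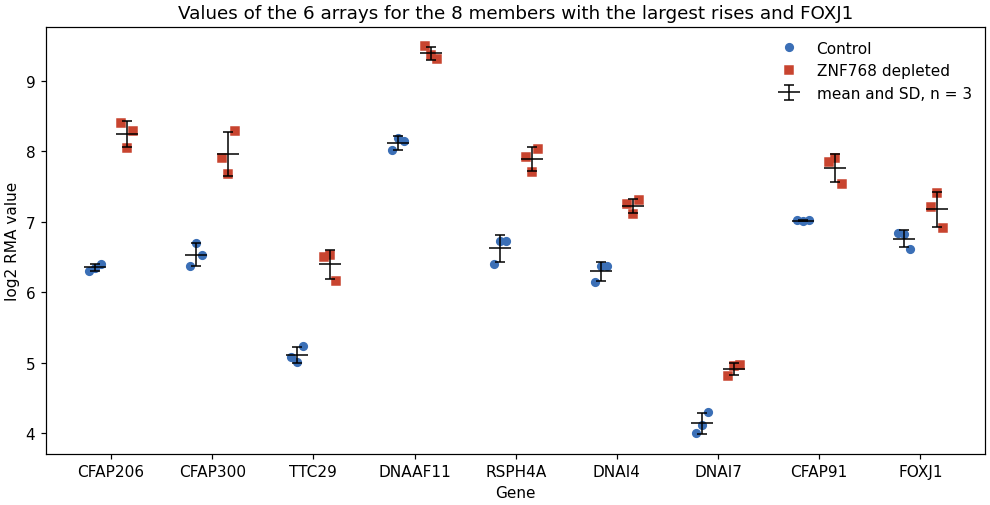
log2 RMA values of the 3 control arrays (circles) and the 3 ZNF768 depleted arrays (squares) for the 8 genes with the largest rises and for FOXJ1, with the mean and SD of each group. In all 9 genes every depleted array lies above every control array, which held for 28% of all genes. The 8 genes were picked for their rises, so their separation follows from that choice. The FOXJ1 difference of 0.42 did not pass the test.

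The radial spokes, T-shaped complexes that link the doublets to the central pair, held the largest rise. Of 12 spoke genes, 7 rose (58.3%, against 16.6% of all genes) and the median log2 fold change was 0.37. CFAP206, which in Tetrahymena anchors a radial spoke and an inner dynein arm to the doublet, read 6.31, 6.35 and 6.40 in control arrays and 8.40, 8.04 and 8.28 in depleted arrays. The groups lay far apart, with a log2 fold change of 1.89 (SE 0.0992, limma adjusted p = 8.23e-05), a 3.71-fold rise. RSPH4A, a spoke head protein mutated in primary ciliary dyskinesia, the inherited disease of immotile cilia, read 6.40, 6.73 and 6.73 in control arrays and 7.92, 7.70 and 8.03 in depleted arrays. The lowest control array set the control spread, the groups did not overlap, and the log2 fold change was 1.26 (SE 0.126, limma adjusted p = 8.27e-04).

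CFAP91, part of the complex at the spoke base, read 7.02, 7.01 and 7.02 in control arrays, with almost no spread, and 7.84, 7.91 and 7.54 in depleted arrays. The third depleted array was the lowest of its group but still above every control array, and the log2 fold change was 0.75 (SE 0.103, limma adjusted p = 0.00303). A second CFAP91 probeset read between 2.96 and 3.18 on all arrays and gave a log2 fold change of -0.04 (limma adjusted p = 0.733), so the 2 probesets of this gene disagreed. The other spoke genes that rose were RSPH3, a stalk protein, by 0.66 from 8.70 ± 0.11, the spoke head gene RSPH9 by 0.56 from 6.85 ± 0.07, CFAP251 by 0.45 from 7.56 ± 0.08 and CFAP61 by 0.28 from 6.68 ± 0.04 (mean ± SD of 3 control arrays). CFAP251 and CFAP61 are partners of CFAP91 at the spoke base in Chlamydomonas.

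The remaining 5 spoke genes did not pass the test and their groups overlapped. RSPH1, another head protein, read 5.52 ± 0.16 in control arrays with a log2 fold change of -0.02, and RSPH6A, the testis counterpart of RSPH4A, read 6.50 ± 0.13 with 0.02. RSPH14 read 6.56 ± 0.09 with 0.01. RSPH10B read 4.81 ± 0.32 with -0.17, the lowest of the 79 differences, and its near-identical copy RSPH10B2 read 4.11 ± 0.15 with 0.18. Probes cannot be relied on to separate these copies. The head genes RSPH4A and RSPH9 thus rose while the interval for RSPH1 ran from -0.28 to 0.24. Differences between genes were not tested.

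The dynein motors were represented by 3 intermediate chains, which join the heavy chains to the microtubule. All 3 rose, as did 16.6% of all genes. DNAI4, of an inner arm dynein, read 6.14, 6.37 and 6.37 in control arrays and 7.25, 7.11 and 7.31 in depleted arrays. The groups were clearly apart, with a log2 fold change of 0.93 (SE 0.0907, limma adjusted p = 7.67e-04). DNAI7, earlier named CASC1, read 4.0, 4.11 and 4.31 in control arrays and 4.82, 4.96 and 4.96 in depleted arrays, a log2 fold change of 0.77 (SE 0.0937, limma adjusted p = 0.00183) between groups that did not overlap. The DNAI7 control mean stood at percentile 11.8 of all probesets, and how far that is above background was not known. DNAI3, also of an inner arm dynein, rose by 0.63 from 8.52 ± 0.15 (limma adjusted p = 0.00355). No heavy chain, the subunit that carries the motor, was measured by name.

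Assembly factors fold and join dynein subunits in the cytoplasm, and a loss of several of them leaves cilia without dynein arms. Of the 7 that were measured, 3 rose (42.9%, against 16.6% of all genes). All 7 had positive differences, against 57.6% of all genes. CFAP300, which is needed for dynein arm assembly in people, read 6.37, 6.70 and 6.52 in control arrays and 7.91, 7.68 and 8.29 in depleted arrays. The depleted arrays were the more spread of the groups but all stood above the controls, and the log2 fold change was 1.43 (SE 0.168, limma adjusted p = 0.0016). DNAAF11, formerly LRRC6, read 8.01, 8.19 and 8.14 in control arrays and 9.49, 9.36 and 9.30 in depleted arrays, with a log2 fold change of 1.27 (SE 0.0789, limma adjusted p = 1.49e-04) and no overlap. DNAAF5, formerly HEATR2, rose by 0.66 from 9.24 ± 0.12 (limma adjusted p = 0.00131).

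The other assembly factors did not pass the test. CFAP298 read 9.16 ± 0.04 in control arrays with a log2 fold change of 0.16 and DNAAF9 read 8.48 ± 0.22 with 0.30, both without overlap between the groups. DNAAF6, the X-linked factor PIH1D3, read 5.14 ± 0.09 with 0.23, and DNAAF8 read 6.99 ± 0.13 with 0.13, both with overlap.

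The docking complex fixes outer dynein arms to the doublet. Of its 4 measured genes 1 rose (25%, against 16.6% of all genes). It was ODAD3, which rose by 0.67 from 6.96 ± 0.09 (SE 0.0978, limma adjusted p = 0.00396). ODAD4 read 7.25 ± 0.18 in control arrays with a log2 fold change of 0.31 and ODAD1 read 7.08 ± 0.09 with 0.11, and in both the depleted arrays lay above the controls without passing the test. ODAD2 read 5.97 ± 0.08 with -0.13, and its groups overlapped. Of the 4 differences, that of ODAD3 alone passed the test. The ODAD2 difference had a 95% interval of -0.32 to 0.05, so its sign is uncertain. Differences between genes were not tested.

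The ruler, the nexin-dynein regulatory complex and the tethers of inner arms set where spokes and dyneins attach along the doublet. Of 8 such genes 3 rose (37.5%, against 16.6% of all genes). CCDC40 and CCDC39 form the ruler together: CCDC40 rose by 0.38 from 6.85 ± 0.14, and CCDC39 read 4.29 ± 0.15 with a log2 fold change of -0.02 that did not pass. CFAP43 and CFAP44 tether an inner arm dynein together: CFAP43 rose by 0.41 from 4.76 ± 0.04, and CFAP44 read 7.04 ± 0.18 with -0.01 and did not pass. In both pairs 1 partner passed the test and the 95% interval of the other included 0, from -0.23 to 0.18 for CCDC39 and from -0.25 to 0.22 for CFAP44. CFAP57, which works in inner arm assembly, rose by 0.41 from 6.21 ± 0.06. DRC1, of the nexin-dynein regulatory complex, read 5.50 ± 0.03 with 0.10, and CFAP73 and CFAP100, which act on inner arms in Chlamydomonas, read 6.69 ± 0.21 with 0.17 and 6.51 ± 0.15 with -0.07. None of these 3 passed the test.

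**Figure D2:**
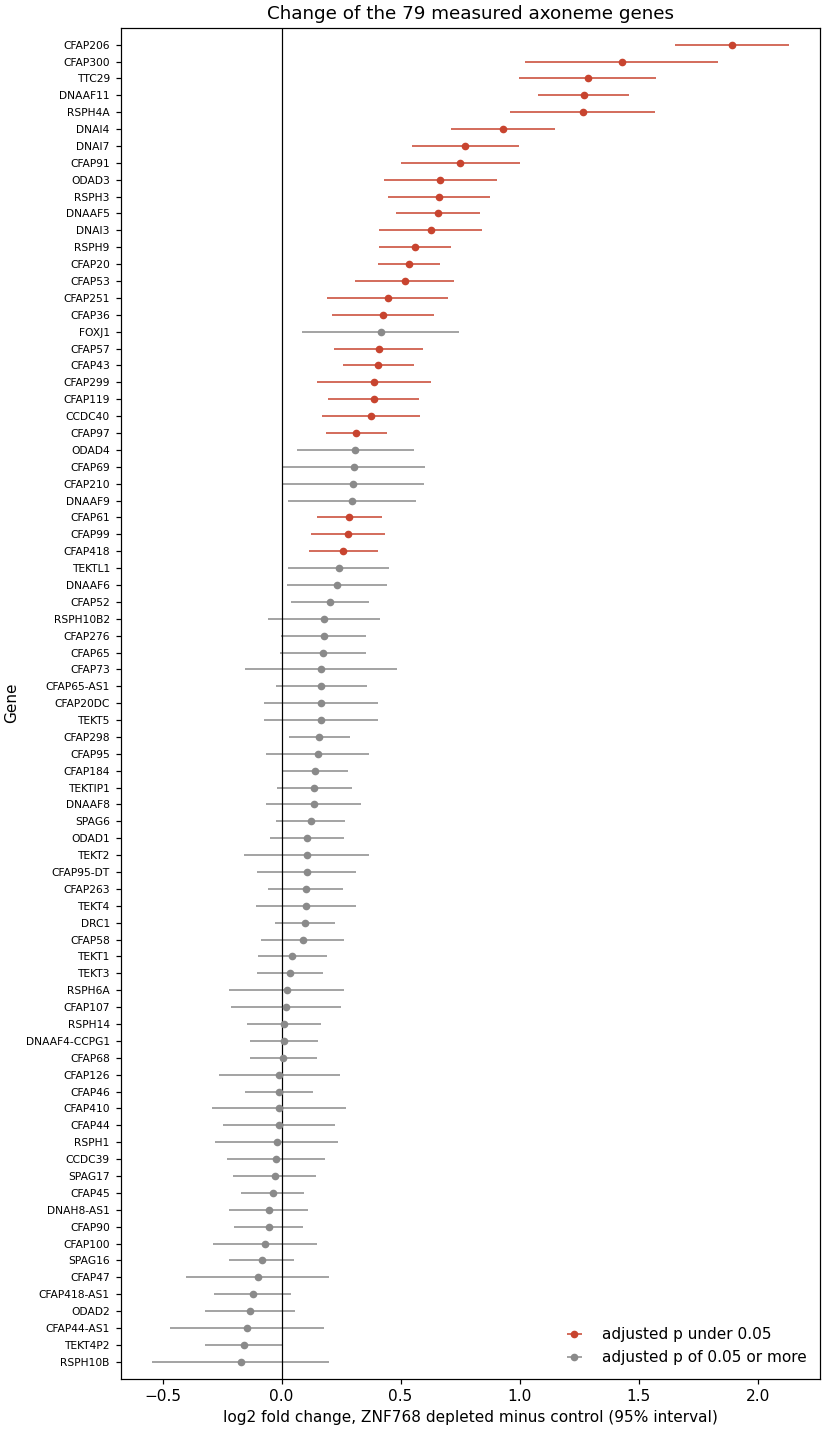
log2 fold change of each of the 79 genes, ZNF768 depleted minus control (points), with its 95% interval (lines). Differences run from -0.17 for RSPH10B to 1.89 for CFAP206, 26 genes with an adjusted p under 0.05 are all on the positive side, and 5 of them exceed 1.

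Doublet inner proteins line the lumen of the doublet microtubules and stiffen them. Of the 18 measured genes 2 rose (11.1%), against 16.6% of all genes. CFAP20, of the junction between the doublet's tubules, rose by 0.54 from 10.15 ± 0.04 (limma adjusted p = 8.94e-04), and CFAP53, which is needed for left-right body asymmetry, by 0.52 from 5.65 ± 0.09 (limma adjusted p = 0.00648). The tektins, filament proteins of this group, did not pass the test. TEKT1, TEKT2, TEKT3, TEKT4 and TEKT5 read 6.15, 6.06, 5.0, 7.90 and 6.57 in control arrays, with log2 fold changes of 0.04, 0.11, 0.04, 0.10 and 0.16. TEKTL1 and TEKTIP1, also counted as doublet inner proteins, read 5.55 with 0.24 and 7.49 with 0.14. In both the 2 groups of arrays did not overlap, and neither gene passed the test.

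Among the other inner proteins that did not pass, CFAP52, CFAP210 and CFAP276 read 6.15, 5.34 and 5.72 in control arrays, with log2 fold changes of 0.20, 0.30 and 0.18 and no overlap between the groups. CFAP45, CFAP68, CFAP90, CFAP95, CFAP107 and CFAP126 read 7.49, 7.74, 6.18, 4.46, 5.34 and 6.37, and their differences lay between -0.05 and 0.15, with overlap in each. Levels of different probesets depend on the probes, so no order between genes was read from them.

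The central apparatus is the pair of single microtubules with their projections. Of its 8 measured genes 1 rose (12.5%, against 16.6% of all genes). It was CFAP99, which rose by 0.28 from 6.97 ± 0.04 (limma adjusted p = 0.0242). SPAG6, SPAG16 and SPAG17, the projection proteins whose loss stops mouse sperm and cilia from beating normally, read 5.84 ± 0.01, 7.58 ± 0.02 and 5.04 ± 0.00 in control arrays. Their log2 fold changes were 0.12, -0.08 and -0.03, and none passed the test. The 3 SPAG17 controls had exactly equal values, as did the 3 depleted arrays of CFAP58, RSPH10B and TEKT3. SPAG16 was 1 of the 2 genes in which every depleted array read below every control array. CFAP69 read 6.43 ± 0.22 with 0.30 and no overlap. CFAP65, CFAP46 and CFAP47 read 6.62 ± 0.09, 6.52 ± 0.06 and 4.92 ± 0.09 with 0.17, -0.01 and -0.10, and their groups overlapped.

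The other 11 protein-coding genes were not assigned to these classes here, so the class shares depend on that assignment. Of these 11, 6 rose (54.5%, against 16.6% of all genes). TTC29, which sperm need for normal flagella, read 5.09, 5.01 and 5.24 in control arrays and 6.50, 6.53 and 6.16 in depleted arrays. No depleted array came near the controls, and the log2 fold change was 1.29 (SE 0.12, limma adjusted p = 6.32e-04). CFAP36 rose by 0.43 from 8.64 ± 0.14, CFAP299 by 0.39 from 5.80 ± 0.06 and CFAP119 by 0.39 from 7.48 ± 0.12. CFAP97 rose by 0.31 from 9.78 ± 0.03, and CFAP418, mutated in inherited retinal degeneration, by 0.26 from 8.58 ± 0.05. These genes include some with roles outside motile cilia, since the CFAP name is shared by proteins of other kinds. CFAP20DC, CFAP184, CFAP263, CFAP58 and CFAP410 read 6.99, 5.77, 8.92, 6.45 and 7.10 in control arrays, and their differences, from -0.01 to 0.17, did not pass.

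None of the 7 genes that are not protein coding passed the test. CFAP65-AS1, CFAP95-DT, DNAH8-AS1, CFAP418-AS1 and CFAP44-AS1 read 4.39, 5.18, 5.11, 6.25 and 5.24 in control arrays, DNAAF4-CCPG1 read 7.93 and TEKT4P2 read 9.49. Their differences lay between -0.16 and 0.17. TEKT4P2 was the other gene whose depleted arrays all read below the controls, and its second probeset fell, with a log2 fold change of -0.43 (limma adjusted p = 0.00614). It resembles TEKT4 in sequence, so its values are uncertain as those of 1 gene. CFAP418-AS1 lies antisense to CFAP418, which rose, and read -0.12 itself.

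**Figure D3:**
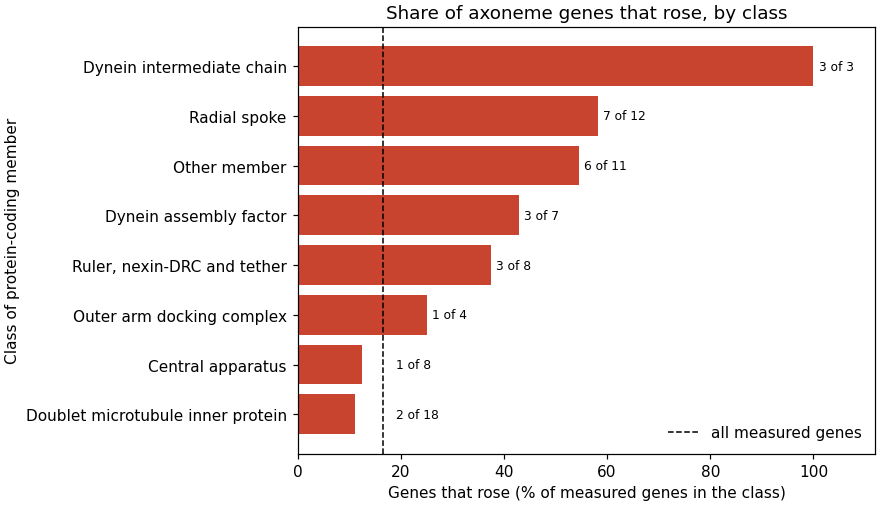
Share of measured protein-coding genes of each class that rose, with the counts beside the bars and the share of all genes, 16.6%, as a dashed line. Dynein intermediate chains (3 of 3) and radial spokes (7 of 12) stand highest. Central apparatus (1 of 8) and doublet inner proteins (2 of 18) lie a little below the line, near the share of all genes. The classes are small, and differences between them were not tested.

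FOXJ1, the master transcription factor of motile cilia, read 6.83, 6.82 and 6.62 in control arrays and 7.21, 7.40 and 6.91 in depleted arrays. Every depleted array was above every control array, but the third depleted array was close to the controls. The log2 fold change was 0.42 (95% interval 0.09 to 0.74, limma adjusted p = 0.0792), short of the threshold. Without that array limma's adjusted p was 0.0248, and over all alternatives it ran from 0.0248 to 0.208. RFX2 and RFX3 were not measured by name.

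The genes that switch on multiciliation upstream of FOXJ1 in other tissues were then examined, with the proteins that multiply centrioles. Of 16 listed, 11 were measured, none rose and 2 fell, against 16.6% and 16.8% of all genes. With limma, 3 had an unadjusted p under 0.05, which 6700 of all 14884 genes had. MCIDAS and GMNC, the nuclear cofactors at the top of the programme, had log2 fold changes of 0.09 (95% interval -0.09 to 0.28) and 0.04 (95% interval -0.10 to 0.18). CCNO, DEUP1, FOXN4, TP73, MYB and CDC20B had differences between -0.11 and 0.10, and TFDP1 one of 0.22 (limma adjusted p = 0.0585). The 2 falls were of centriole duplication proteins. CEP152 read 8.38, 8.58 and 8.60 in control arrays and 7.08, 7.01 and 7.02 in depleted arrays, a log2 fold change of -1.48 (SE 0.0781, limma adjusted p = 8.32e-05). Its partner CEP63 fell by 0.29 (limma adjusted p = 0.0246), and leaving out the second control, the third control, the second depleted or the third depleted array left CEP152 as the one call in this list (limma adjusted p for CEP63 0.0726 to 0.0812).

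A further 54 axonemal genes have symbols outside the choice above, and 37 of them were measured. Of these 12 rose (32.4%) and 3 fell (8.11%), against 16.6% and 16.8% of all genes, and the median log2 fold change was 0.12. IQUB, which ties radial spokes to the doublet in mouse sperm, read 6.65, 6.93 and 6.79 in control arrays and 8.15, 7.97 and 8.06 in depleted arrays, a log2 fold change of 1.27 (SE 0.0911, limma adjusted p = 2.53e-04). BBOF1 rose by 1.23 from 6.70 ± 0.04 and the spoke protein ROPN1L by 1.11 from 8.33 ± 0.10. The falls were of MNS1, a doublet inner protein, TPPP3, a tubulin-binding protein, and NME5, a radial spoke protein. MNS1 read 9.45, 9.66 and 9.66 in control arrays and 7.99, 7.94 and 7.99 in depleted arrays, a log2 fold change of -1.62 (SE 0.0753, limma adjusted p = 5.48e-05). TPPP3 fell by 0.88 and NME5 by 0.38, and the NME5 call was lost in each fit that left out a sample except the fit without control replicate 1 (limma adjusted p 0.0523 to 0.0724). Of the 12 rises, PIERCE2 lost its call in all 6 fits without a sample (limma adjusted p 0.0503 to 0.112) and DRC3 in 5 of them, all but the fit without control replicate 3 (limma adjusted p 0.0675 to 0.127).

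**Figure D4:**
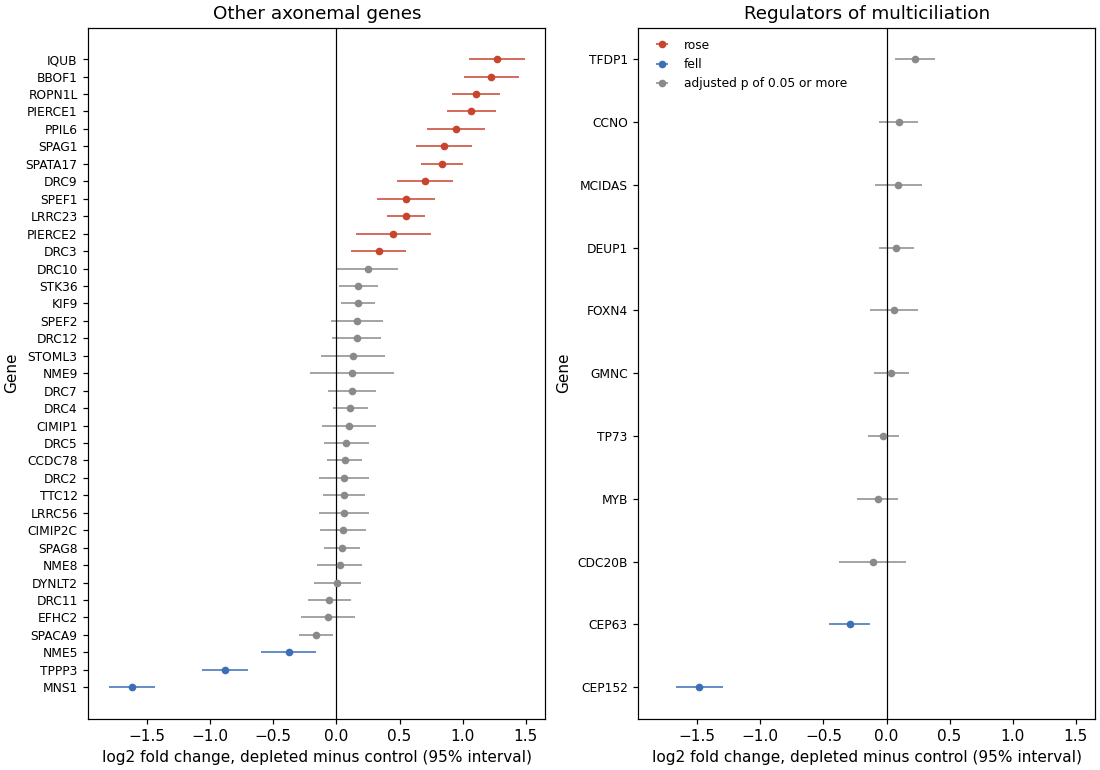
log2 fold change, ZNF768 depleted minus control, with 95% intervals, of the 37 other axonemal genes (left) and the 11 regulators of multiciliation (right). IQUB, at 1.27, and MNS1, at -1.62, are the ends of the left panel, and CEP152 and CEP63 are the 2 genes past the test on the right.

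Markers of other cells that carry these genes were read beside them. Of 10 markers of multiciliated ependymal cells 7 were measured, of which ROPN1L rose and TPPP3 fell (1 of 7 each, against 16.6% and 16.8% of all genes), and the median log2 fold change was 0.13. The mean log2 value over these 7 markers was 7.04 to 7.09 in control arrays and 7.18 to 7.26 in depleted arrays. ROPN1L, which rose by 1.11, and TPPP3, which fell by 0.88, moved this mean in opposite directions. Both are also counted among the other axonemal genes. Without ROPN1L, a comparison added after the values were seen, the other 6 markers averaged 6.84 to 6.88 in control and 6.80 to 6.89 in depleted arrays. Those 6 still include TPPP3, and the mean without TPPP3 was not taken, so no conclusion was drawn from this exclusion. FOXJ1 and CFAP276 are also among the 79 genes. Of 19 spermatid markers 18 were measured, 2 rose (11.1%) and none fell, against 16.6% and 16.8% of all genes. Their median log2 fold change was 0.13. Their mean log2 value was 5.60 to 5.62 in control arrays and 5.71 to 5.77 in depleted arrays, and over the 79 axoneme genes it was 6.59 to 6.60 against 6.86 to 6.88. The mean level of the spermatid list was higher in every depleted array, and its part in the results was not tested. The 2 spermatid genes that rose were PRM2, a protamine, by 0.40 from 6.86 ± 0.10, and ODF2, which is also a centriole protein, by 0.37 from 9.07 ± 0.03. Positive differences were seen in 14 of the 18 spermatid genes (77.8%, against 57.6% of all genes). In 6 of the 18 (33.3%, against 28% of all genes) every depleted array read above every control array. In none did every depleted array read below, against 23.5% of all genes. Besides the 2 that rose, those 6 were TEX101, TNP2, SPATA16 and ODF1, with control levels of 5.26, 5.19, 4.92 and 4.92 and log2 fold changes of 0.37, 0.26, 0.22 and 0.19 that did not pass. PRM1, TNP1 and ACR read 5.60, 5.59 and 6.44 with 0.13, 0.02 and -0.08, with overlap. The arrays gave no background for single probesets, so none of these values was read as presence or absence.

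The letters of the RFX motif were searched in the promoters of the 66 genes for which one was available, on both strands and over the same 300 bases. CFAP300, DNAAF11, DNAI4 and CFAP418, which rose, were not among these 66, so several of the largest rises are missing from this search. The core site GTTGCC was in 48.5% of these promoters and in 12.2% of the 27305 promoters of all genes. Within the family it was in 9 of 22 genes that rose (40.9%) and in 23 of 44 that did not pass (52.3%). The whole X-box was in 15.2% of the 66 promoters and in 2.06% of all, and in 13.6% of those that rose against 15.9% of those that did not. A wider X-box, GTNNCC, any 3 bases and then GNNAC, which includes the whole X-box and was added after the sequences had been seen, was in 30.3% of the 66 and 4.81% of all. The forkhead letters TGTTTAC were in 6.06% of the 66 and 3.41% of all. Any of the RFX-type letters stood in 54.5% of the genes that rose and in 59.1% of those that did not, against 15.3% of all promoters. These counts describe letters in the windows and were not tested. CFAP206, with the largest rise, had none of these exact letters. Near matches were not counted in any promoter, so a window without an exact match may still hold letters close to a motif.

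**Figure D5:**
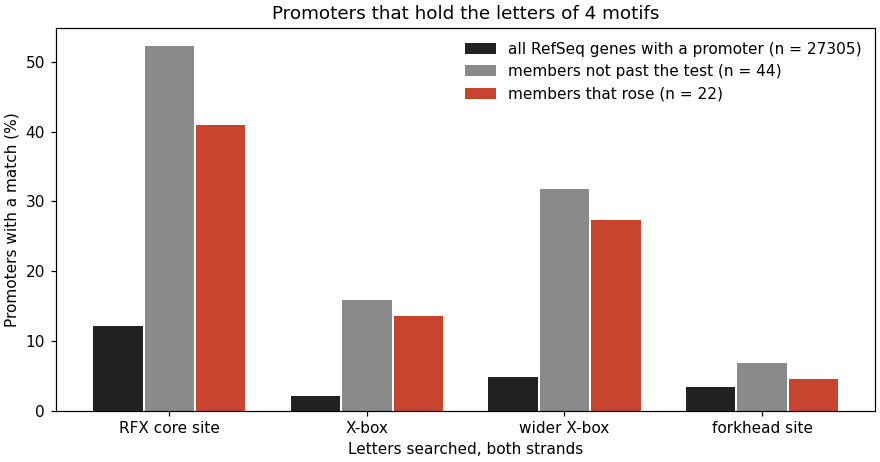
Percentage of promoters holding the letters of 4 motifs on either strand, for all RefSeq genes with a promoter (black), the 44 axoneme genes that did not pass the test (grey) and the 22 that rose (red). The RFX core site is in 12.2%, 52.3% and 40.9% of them.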

How the data were processed

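Total RNA of 6 U87 samples was measured on 6 Affymetrix Human Gene 2.0 ST arrays. The values deposited by the authors are log2 expression values from Robust Multichip Average (RMA), run with the R package oligo, whose version is not given in the sources used here. RMA corrects background and gives all arrays 1 distribution, so a shift of all genes together would not be seen. The table held 53617 probesets, 16098 of them named through the platform annotation and Entrez identifiers (all matched to RefSeq) and 37519 unnamed. The probeset with the highest mean over 6 arrays stood for each of 14884 genes, 779 of which had several. limma 3.58.1 (lmFit, eBayes) in R 4.3.3 was fitted over all probesets, two-sided, without covariates, with Benjamini-Hochberg adjustment and a threshold of 0.05, and was tested on simulated data. Having 3 arrays a group limits precision, and p-values measure the spread between these samples. Each of the 79 genes is named with its control level, array values are given for ZNF768, FOXJ1 and the 8 largest rises, and of other lists up to 3 rises and 3 falls are named by rule, the rest after their values were seen. The genes, lists and classes were chosen with earlier results of these data known. A planned low-signal reference of olfactory receptor genes held 1 measured gene and was not used. Promoters came from RefSeq (GRCh38.p14).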

Additional observations from a re-analysis of the deposited data

How the results depend on the processing

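The number of axoneme genes that rose was 26, when 2466 of all genes rose. It was 24 with cyclic loess (2246 of all genes) and 28 when arrays were centred on 5 housekeeping genes (2865 of all genes). That centring put the median of all genes at 0.08 in place of 0.04. The number was 30 with named probesets only (3158 of all genes) and 27 with the trend and robust settings (2729). It was 26 with the mean of a gene's probesets (2425) and 23 of the 46 genes above the median signal (2887). At an adjusted p of 0.01 it was 17, by construction of the threshold, when 1506 genes rose and 1796 fell in all. With each sample left out it ran from 20 to 24 (none fell, 0 to 0), while 1873 to 2113 of all genes rose. Those fits gave 10 to 11 rises and 2 to 3 falls among the other axonemal genes. They also gave 1 to 3 multiciliation regulators past the test and a ZNF768 log2 fold change of -1.44 to -1.29. With the mean of probesets 1 gene fell, TEKT4P2, whose second probeset is lower in depleted cells. At 0.01 the multiciliation regulators had 1 call. Of 1073 single-gene values of the 79 genes under the alternatives, 1013 stayed on their side of the threshold, 44 fell short of it and 16 crossed it. The sign changed in 42 values of 18 genes, none of which had risen. Replicate numbers did not pair the samples: deviations of same-numbered samples correlated at -0.07, -0.02 and 0.02. The replicate block gave 21 rises, 20 of them shared, and 1 multiciliation regulator past the test, CEP152, with 1865 rises and 2029 falls in all. FOXJ1 passed with that block (limma adjusted p = 0.039), without depleted replicate 3 (0.0248), with named probesets only (0.0363) and without dim probesets (0.0332). With arrays, signal near background limits what can be seen, and that level was not known here.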
